A study of Rattus norvegicus with 12 samples.

Results

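Kidney cortex of rats homozygous for a mutated Xdh gene (HOMO, 4 libraries) was set against kidney cortex of their wild-type littermates (WT, 4 libraries). These are the 8 libraries of those genotypes out of 12 in the study. They were chosen by the genotype in their labels and are described across all genes. All 8 came from male rats aged 6 weeks of the line SS-Xdhem1Mcwi, and the WT animals carry the same line name and differ by the label of their genotype. The labels call the tissue flash-frozen kidney cortex, extracted with Trizol and sequenced as poly(A) RNA with a stranded kit. No label gives a treatment, and none says that each library came from a separate animal, so p-values describe how much these libraries vary, which may be technical variation only. By the rules of rat strain naming, the name denotes an Xdh mutation made with an endonuclease on the SS (Dahl salt-sensitive) background.

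Xanthine dehydrogenase, the product of Xdh, oxidises hypoxanthine to xanthine and xanthine to uric acid, the last steps of purine breakdown. The kidney cortex consists mainly of proximal tubules, which reabsorb filtered solutes through brush-border transporters and meet their energy demand by mitochondrial oxidation. Glomeruli, distal segments, vessels and interstitial cells make up the rest. In bulk tissue, fewer cells of a type and less RNA per cell cannot be told apart.

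Xdh (ENSRNOG00000007081, chromosome 6 of Rnor_6.0, listed start 25149235) was checked in each library. It stood at 61.7, 60.7, 229.7 and 57.6 CPM (counts scaled to library size, with TMM factors for composition) in the libraries labelled HOMO replicates 1 to 4, against 281, 380, 212 and 270.1 CPM in WT replicates 1 to 4. The library labelled HOMO replicate 3 lay inside the WT range and so against its label. With all 8 libraries the log2 fold change of HOMO over WT was -1.48 ± 0.43 (SE, edgeR quasi-likelihood adjusted p = 0.0101), and without that library it was -2.25 (adjusted p = 5.4e-07). The exact two-sided permutation p of the CPM values was 0.0571, where 4 against 4 libraries allow no less than 0.0286, and the edgeR value on library size alone was -0.85 (adjusted p = 0.0901).

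Outside Xdh the library labelled HOMO replicate 3 stood mostly with its group. On the first principal component of the 8 libraries, which held 84.4% of the variance, the HOMO libraries lay between 87.0 and 110.8 and the WT libraries between -104.8 and -88.5. Among 9557 genes for which the other 3 HOMO libraries were separate from all WT libraries, the library labelled HOMO replicate 3 lay inside the WT range for 580 (6.07%). The same share, each over its own set of genes, was 2.06% to 3.22% for the other HOMO libraries, 4.68% for WT replicate 2 and 2.40% to 3.11% for the other WT libraries. The genes in which it lay farthest above the other 3 HOMO libraries included the secreted phosphoprotein gene Spp2 (20.8 CPM, against 0.678 to 2.40 CPM in the other HOMO libraries and 313 to 472 CPM in WT) and the flavin monooxygenase gene Fmo2 (126 CPM, against 18.1 to 28.6 CPM in the other HOMO libraries and 68.2 to 77.9 CPM in WT, not called). Without it, 11339 genes were called against 11369 with it, 171 of 172 called genes among those named by rule stayed called, and the medians of all 74 gene lists and families kept their sign.

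HOMO replicate 1 differed in markers of fat and urothelium, and at lower levels in markers of adrenal. Its summed level of 8 adipocyte markers was 924 CPM, against 34.8 to 55.0 CPM in the other HOMO libraries and 9.05 to 40.3 CPM in WT. Its summed level of the urothelium markers was 254 CPM, against 46.5 to 52.99 CPM in the other HOMO libraries and 5.33 to 35.9 CPM in WT. Most of the sum in the other HOMO libraries was the keratin Krt14, at 42.8 to 51.8 CPM there and 3.30 to 18.5 CPM in WT. The uroplakins Upk1a, Upk1b, Upk2 and Upk3a were at 29.5 to 46.7 CPM in HOMO replicate 1. In the other HOMO libraries they were at 0.0200 to 1.24 CPM, and in WT at 0 to 3.97 CPM. No marker of the fat or urothelium list was at 0 in all libraries. Of the 5 tested members of each list 1 was called, Cfd for fat and Krt14 for urothelium, both higher in HOMO. Adrenal markers summed to 22.8 CPM in HOMO replicate 1, against 5.01 to 9.77 CPM in the other HOMO libraries and 5.08 to 6.51 CPM in WT. Single markers also stood out in other libraries. The fat marker Ucp1 was at 20.1 and 7.79 CPM in HOMO replicates 1 and 2, and at 0 in HOMO replicates 3 and 4. The liver marker Alb was at 0.127, 17.9, 0.643 and 30.9 CPM in WT replicates 1 to 4, whereas the liver marker Cyp2c11 was lowest in WT replicate 2 (0.296 CPM). The part of these tissues in other values was not tested. Red cell markers were highest in WT replicate 4, at 1478 CPM, against 35.7 to 499 CPM in HOMO and 195 to 276 CPM in the other WT libraries. The anion exchanger Slc4a1 made up 118.8, 79.7, 126.2 and 163.7 CPM of these sums in WT replicates 1 to 4, and 6.07 to 15.5 CPM in HOMO. Total counts were 22858907 to 36998378 in HOMO and 28481944 to 36119168 in WT.

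The tissue label was checked against 12 cortex markers, and none was absent. Their summed level was 2758 to 3616 CPM in HOMO and 15919 to 19122 CPM in WT, and 10 of the 12 fell. The endocytic receptor Lrp2 averaged 798 ± 131 CPM in HOMO and 5955 ± 862 CPM in WT (SD, n = 4 each).

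Of 15856 genes tested, 71.7% were called at an adjusted p under 0.05, 37.0% as higher and 34.7% as lower in HOMO. For 66.4% of the genes all 4 HOMO libraries lay on the same side of all 4 WT libraries. Among called genes, 3408 rose by more than 2-fold and 2396 fell by more than 2-fold (21.5% and 15.1% of the genes tested), and at 32-fold the counts were 198 and 105. The median log2 fold change of all genes was 0.04, and with library size alone as the scale it was 0.65. On that scale 10292 genes were called higher and 2564 lower, so that 80.1% of the calls were higher, against 51.6% with TMM. Changes are given on the TMM scale. With so many genes called, the count for any gene group is to be read against these shares.

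The libraries themselves differed in how their counts were spread over genes. Counts reached 50% of the library with 1003, 1000.0, 1027 and 924 genes in HOMO replicates 1 to 4, against 472, 381, 436 and 449 genes in WT replicates 1 to 4, and the groups did not overlap. Genes at 1 CPM or more of the raw library total numbered 14235 to 14537 in HOMO and 12905 to 13274 in WT. Solute carrier genes held 1.58 ± 0.11% of the counts in HOMO and 3.61 ± 0.13% in WT, whereas cytosolic ribosomal protein genes held 4.13 ± 0.36% in HOMO and 1.53 ± 0.10% in WT (SD, n = 4 each). Each of these 4 measures had an exact two-sided permutation p of 0.0286, the smallest that 70 arrangements allow, and 0.0343 after adjustment over 6 such tests.

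**Figure D1:**
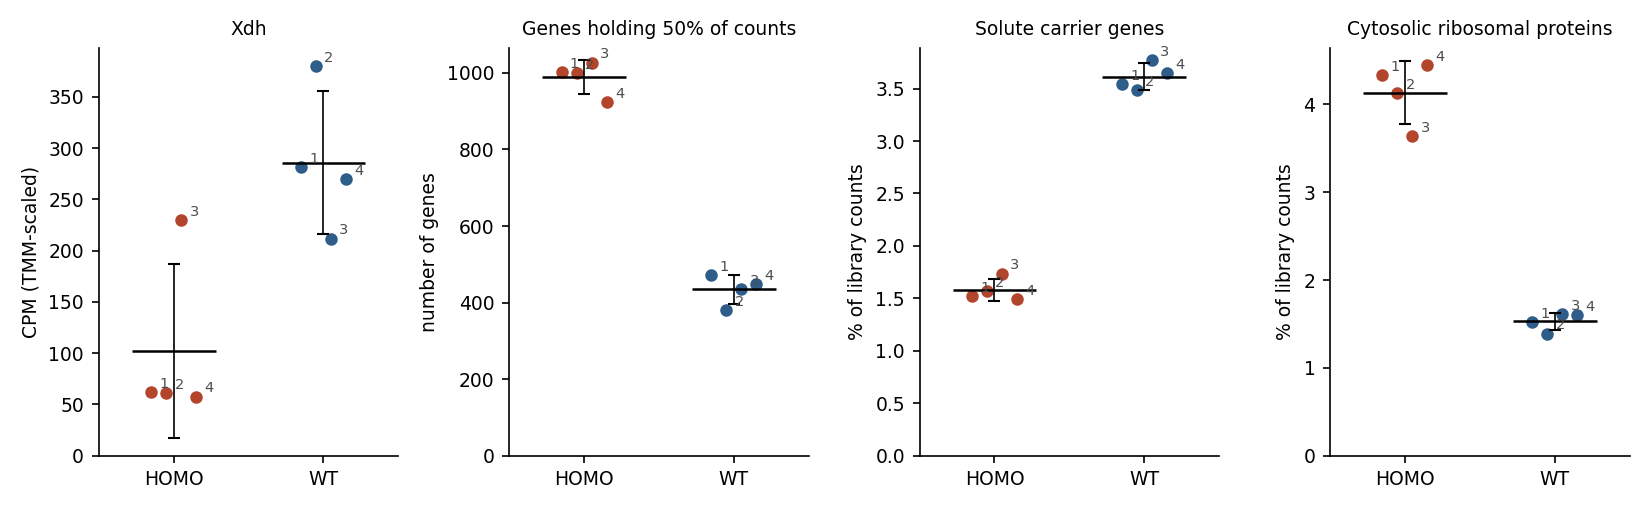
Values per library for Xdh (CPM), the number of genes that hold 50% of the counts, and the percentage of counts in solute carrier and cytosolic ribosomal protein genes, in HOMO (left) and WT (right). Points are libraries with their replicate numbers, lines are means and bars are SD (n = 4), and apart from Xdh, where the library labelled HOMO replicate 3 (229.7 CPM) lies among the WT libraries, the groups do not overlap.

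The most abundant transcripts changed places between the genotypes. By the authors' RPKM, which counts reads per gene length, 6 of the 10 most abundant genes were shared, and all 6 were encoded by the mitochondrial genome. Spp1, the gene of the secreted glycoprotein osteopontin, ranked 4 in HOMO at 10655 ± 1700 RPKM and 256 in WT at 301 ± 102.5 RPKM. Its CPM was 10355, 13568, 13765 and 10897 in HOMO replicates 1 to 4, against 436, 445, 797 and 428 in WT replicates 1 to 4, a log2 fold change of 4.53 ± 0.23. The actin monomer binder Tmsb4x ranked 8 in HOMO and 77 in WT, and the elongation factor Eef1a1 ranked 10 in HOMO and 29 in WT. The kidney androgen-regulated protein gene Kap ranked 1699 in HOMO and 9 in WT, and the plasma glutathione peroxidase gene Gpx3 ranked 16 in HOMO and 6 in WT. Of the 100 most abundant genes of WT cortex 12 rose and 85 fell, at a median log2 fold change of -1.63. Of the 100 most abundant genes of HOMO cortex 66 rose and 27 fell. These counts describe genes that were picked by their level in 1 of the groups compared.

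**Figure D2:**
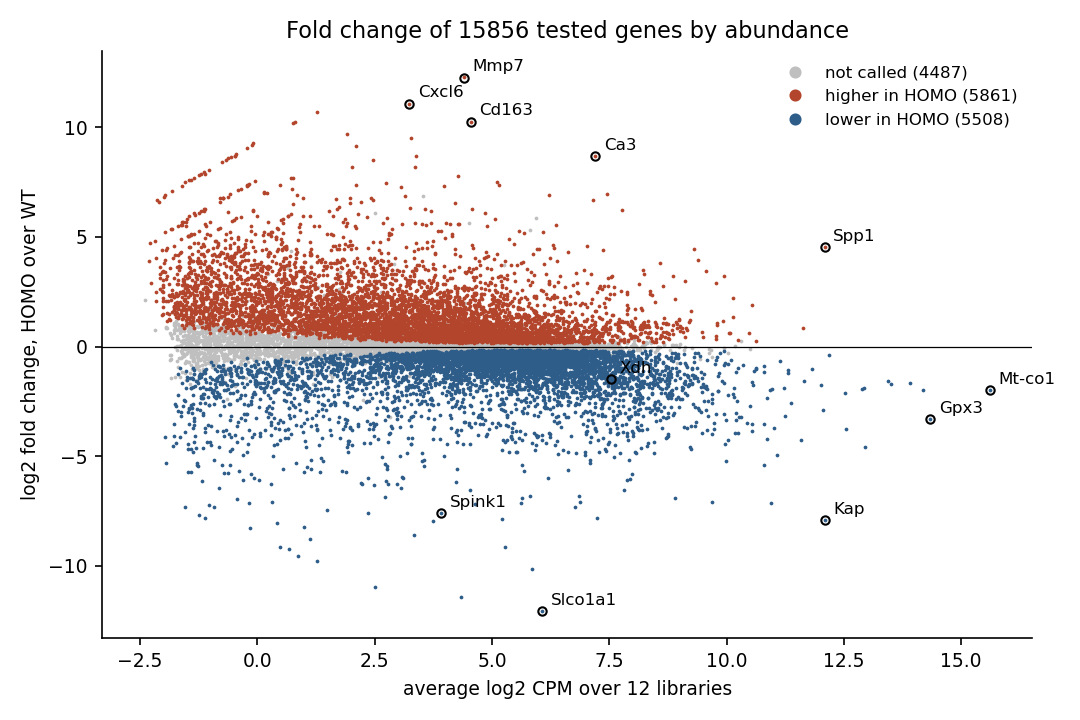
Log2 fold change of HOMO over WT (vertical axis) against average log2 CPM over the 12 libraries of the fit (horizontal axis) for all 15856 genes tested, coloured by call, with some named genes circled. The genes with the highest average level, such as Mt-co1 and Gpx3, lie below 0, and Spp1 lies far above 0 among the abundant genes.

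The 12 largest rises were taken from called genes whose log2 CPM averaged 1 or more. Placeholder symbols and genes of the mitochondrial genome were left out. Genes in which HOMO and WT libraries overlapped were left out too, so separate groups were a condition of entry. Most of the 12 encode secreted proteins or enzymes. Mmp7, the gene of the metalloproteinase matrilysin, stood at 68.3, 49.97, 42.5 and 90.8 CPM in HOMO replicates 1 to 4, against 0.0315 CPM in WT replicate 4 and no count in the other WT libraries. Its ratio of summed counts was 6829 (95% exact interval 1225 to 269739, counting error only). Cxcl6, a chemokine that attracts neutrophils, had 15.6 to 38.2 CPM in HOMO and a single count over the 4 WT libraries (ratio 3055, 548 to 120706). Every HOMO library exceeded every WT library by orders of magnitude for both genes. Cd163, the scavenger receptor of macrophages for haemoglobin and haptoglobin, was at 44.1, 23.1, 104 and 105 CPM in HOMO replicates 1 to 4 and at 0 to 0.0953 CPM in WT (log2 fold change 10.25 ± 1.15). Draxin, a secreted guidance protein of axons, had 4.97 to 9.66 CPM in HOMO and no count in WT, and was at least 237-fold higher against a floor of 3 counts over the WT group.

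Enzymes of small signalling molecules were also among these rises. Aoc1, the diamine oxidase that degrades histamine and putrescine, was at 29.4, 30.7, 30.0 and 22.3 CPM in HOMO replicates 1 to 4 and at 0 to 0.0635 CPM in WT (9.49 ± 0.34). Tdo2, which opens the tryptophan ring in the first step of the kynurenine pathway, had 6.09 to 15.6 CPM in HOMO and 1 count in WT (ratio 1216, 218 to 48074). Dio3, the deiodinase that inactivates thyroid hormone, had 3.87 to 17.5 CPM in HOMO and 2 counts in WT (ratio 643, 178 to 5317). The Wnt-binding protein gene Sfrp4 (8.20 ± 0.94) and the chemokine gene Cxcl2 (8.16 ± 0.68) were also among them.

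In a pair of the largest rises HOMO replicate 1 stood far above the other HOMO libraries, namely Ca3, a carbonic anhydrase of muscle and fat, and Plin4, a lipid droplet protein. Ca3 was at 1387, 94.4, 18.0 and 58.0 CPM in HOMO replicates 1 to 4 and at 0.151 to 1.35 CPM in WT. Its log2 fold change was 8.66 ± 2.72, and it stayed called at 5.88 (adjusted p = 0.0433) without HOMO replicate 1. Plin4 was at 42.6, 0.807, 0.761 and 0.136 CPM in HOMO and at 0 to 0.0846 CPM in WT (ratio of summed counts 482, 165 to 2338, adjusted p = 0.0378). It lost its call without HOMO replicate 1 (adjusted p = 0.21) and without WT replicate 1, 2, 3 or 4 (adjusted p = 0.0729 to 0.0857). The adipsin gene Cfd, a fat marker, was at 293 CPM there, at 24.0 to 31.7 CPM in the other HOMO libraries and at 0.265 to 1.02 CPM in WT, and it stayed called without that library (5.68, adjusted p = 0.0117). The part of the fat markers in the values of Ca3 and Plin4 was not tested.

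The 12 largest falls, taken by the same rules as the rises, included transporters, secreted proteins and enzymes. Kap was at 42.0, 54.6, 11.8 and 2.44 CPM in HOMO replicates 1 to 4, against 6361, 4403, 8734 and 7324 CPM in WT replicates 1 to 4, a log2 fold change of -7.92 ± 0.90. Spink1, a trypsin inhibitor, was at 0.0339 to 0.202 CPM in HOMO and at 22.4, 22.6, 22.1 and 22.7 CPM in WT (-7.58 ± 0.29), with almost no spread between the WT libraries. Mbl1, a mannose-binding lectin, had 0 to 0.0756 CPM in HOMO and 2.79 to 10.9 CPM in WT (-7.61 ± 0.64). The tissue kallikrein genes Klk1c10 and Klk1c2 belong to a family of near-identical copies, so their counts are uncertain. Klk1c10 had no count in any HOMO library and 2.58 to 4.35 CPM in WT, and was at least 195-fold lower against a floor of 3 counts over the HOMO group. Klk1c2 had 1 count in HOMO and 333 in WT, a ratio of WT over HOMO of 492 (87.7 to 19498).

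For 7 of these falls WT replicate 2 stood far below the other WT libraries. Slco1a1, an organic anion transporter of the proximal tubule, was at 0 to 0.0504 CPM in HOMO, against 118, 6.22, 206 and 144 CPM in WT replicates 1 to 4. Hnmt, which methylates histamine, was at 1.98, 2.82, 0.461 and 0 CPM in HOMO, against 167, 5.37, 418 and 275 CPM in WT. The amino acid transporter gene Slc7a12, the calcium channel subunit gene Cacng5, the cytochrome gene Cyp1a1, the aldo-keto reductase gene Akr1c12l1 and the olfactory receptor gene Olr1668 had the same order among the WT libraries. WT replicate 2 held 0.705% to 9.73% of the mean of the other WT libraries for these 7 genes. Their log2 fold changes lay between -12.06 and -7.32, and without WT replicate 2 between -12.46 and -7.73, all called. Slco1a1, Akr1c12l1 and Olr1668 have near-identical relatives, so reads may have been shared between copies. Both enzymes that clear histamine were thus among the extremes, Aoc1 as a rise and Hnmt as a fall.

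**Figure D3:**
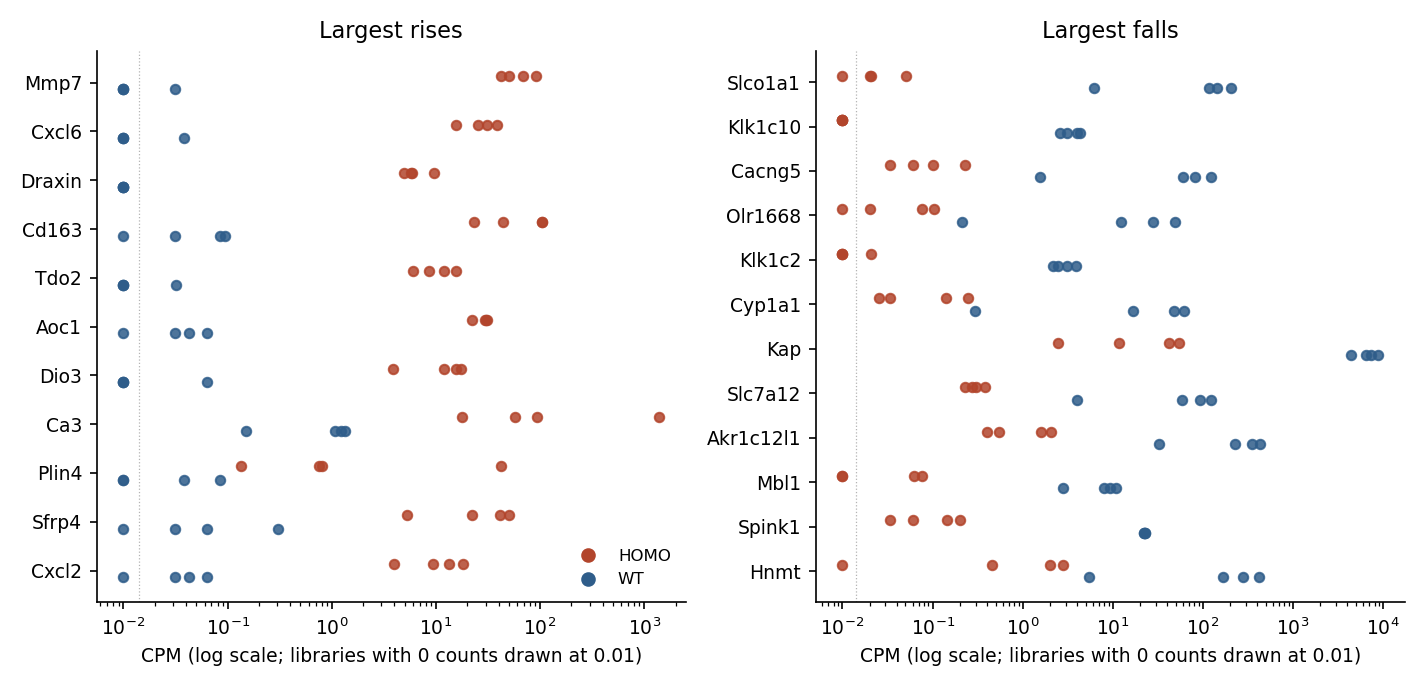
CPM per library on a log axis for genes among the 12 largest rises (left panel) and for the 12 largest falls (right panel), HOMO points above WT points in each row, with libraries without a count drawn at 0.01. Genes were eligible only if their groups were separate. HOMO replicate 1 stands out at 1387 CPM for Ca3 and 42.6 CPM for Plin4, and WT replicate 2 is the lowest WT library for 9 of the 12 falls.

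The start regions of these genes were read from RefSeq (build GRCr8, 250 bases before to 50 after the start), where 10958 tested genes had a window by symbol. The 4 shown were selected after their motifs were seen, as examples from the largest rises and falls of the AP-1, GTTAAT and HNF4 matches discussed next. The same motifs were in other windows of these genes, GTTAAT in that of Akr1c12l1 and the AP-1 motif in that of Plin4 and, among the falls, in that of Klk1c2. Capitals mark the motif match, which is a match of letters only and not a measured binding site.
Mmp7: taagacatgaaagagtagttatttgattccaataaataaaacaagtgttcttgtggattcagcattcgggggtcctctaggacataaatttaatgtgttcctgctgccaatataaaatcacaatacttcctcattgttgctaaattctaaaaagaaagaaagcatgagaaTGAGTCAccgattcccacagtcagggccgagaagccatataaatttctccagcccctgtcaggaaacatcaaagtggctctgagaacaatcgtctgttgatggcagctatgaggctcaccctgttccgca
Kap: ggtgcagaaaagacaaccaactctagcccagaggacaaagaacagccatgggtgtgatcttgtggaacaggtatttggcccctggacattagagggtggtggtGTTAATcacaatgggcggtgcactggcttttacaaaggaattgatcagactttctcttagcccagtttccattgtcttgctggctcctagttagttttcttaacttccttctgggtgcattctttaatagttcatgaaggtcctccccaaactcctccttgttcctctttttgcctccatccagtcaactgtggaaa
Slc7a12: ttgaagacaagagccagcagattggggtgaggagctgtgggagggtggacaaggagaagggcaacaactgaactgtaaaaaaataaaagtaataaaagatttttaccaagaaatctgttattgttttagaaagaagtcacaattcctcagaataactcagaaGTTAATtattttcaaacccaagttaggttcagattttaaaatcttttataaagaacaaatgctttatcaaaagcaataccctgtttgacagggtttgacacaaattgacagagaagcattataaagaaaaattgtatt
Spink1: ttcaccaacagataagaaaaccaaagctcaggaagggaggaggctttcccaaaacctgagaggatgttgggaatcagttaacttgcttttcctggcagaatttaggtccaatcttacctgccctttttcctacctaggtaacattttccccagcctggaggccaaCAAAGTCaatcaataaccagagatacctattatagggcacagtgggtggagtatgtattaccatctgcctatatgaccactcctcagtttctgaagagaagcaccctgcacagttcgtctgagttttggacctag
The Mmp7 window (chr8:13132793-13133092, plus strand) holds TGAGTCA, a form of the AP-1 motif, at -80 from the start. The windows of Kap (chr4:168408983-168409282, minus strand) and Slc7a12 (chr2:88868054-88868353, minus strand) hold the motif GTTAAT at -147 and -88. The window of Spink1 (chr18:36133547-36133846, minus strand) holds the HNF4 motif CAAAGTC at -85.

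Both strands of the windows were searched for TGANTCA (AP-1), for GTTAAT as shown above, for CAAAGTC (HNF4), TTCCCGC (E2F), the CCAAT box and the TATAAA box, whose matches overlapped one of another motif in 3 to 24 windows each. GTTAAT was in 12.4% of the windows of the 500 largest falls (log2 fold change of -2.26 or below), in 7.0% of those of the 500 largest rises (2.99 or above) and in 4.75% of all 10958. CAAAGTC was in 7.2% of the windows of the falls, 3.6% of those of the rises and 3.69% of all. TGANTCA was in 9.8% of the windows of the rises, 5.8% of those of the falls and 5.15% of all. TATAAA was more frequent at both ends, in 16% of the rises and 12% of the falls against 7.32% of all, and TTCCCGC less frequent at both, in 3.6% and 4.4% against 7.92%. CCAAT was in 31.6%, 38.6% and 37.4% of the windows. The share of GTTAAT among the rises was 4.2% when genes with an average log2 CPM under 1 were left out, against 11.8% among the falls, and 10.5% and 16% among the 200 largest rises and falls. These shares are descriptions of the windows, with no test.

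Transcription factors of differentiated tubules and factors of development and repair mostly moved in opposite directions. Of 29 tested epithelial factors 19 fell and 3 rose, at a median log2 fold change of -0.95, against 0.04 for all genes. Hnf4a, which drives proximal tubule genes, was at 124, 155, 108 and 101 CPM in HOMO replicates 1 to 4, against 1131, 1209, 1093 and 975 CPM in WT replicates 1 to 4 (-3.18 ± 0.14). Its relative Hnf4g (-2.87 ± 0.17), the fatty acid receptor Ppara (-3.21 ± 0.26), the bile acid receptor Nr1h4 (-2.73 ± 0.14) and the orphan receptor Esrrg (-1.61 ± 0.08), a regulator of mitochondrial genes, fell as well. The epithelial factor Grhl2 rose (1.23 ± 0.13), as did Tfap2a (1.04 ± 0.21). With library size alone 15 fell and 7 rose.

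Of 30 tested factors of development and repair 23 rose and 1 fell, at a median of 1.28. Runx1 was at 12.01, 13.1, 15.2 and 23.3 CPM in HOMO replicates 1 to 4 and at 0.416 to 1.02 CPM in WT (4.4 ± 0.31). Sox9, a factor of regenerating tubules, averaged 28.04 ± 5.57 CPM in HOMO and 7.82 ± 3.67 CPM in WT (1.84 ± 0.42). Elf3 (2.22 ± 0.12), Klf5 (3.0 ± 0.23), Sox11 (4.01 ± 0.50) and the mesenchymal factor Snai2 (2.65 ± 0.20) rose too. Tead1, a partner of Yap1, was the member that fell (-0.31 ± 0.11), but the call was lost without HOMO replicate 1 or 2 or WT replicate 2 or 3 (-0.28 to -0.25) and the direction reversed to 0.31 with library size alone. Without the library labelled HOMO replicate 3, 3 members of this list fell, and without HOMO replicate 4, 2 did.

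**Figure D4:**
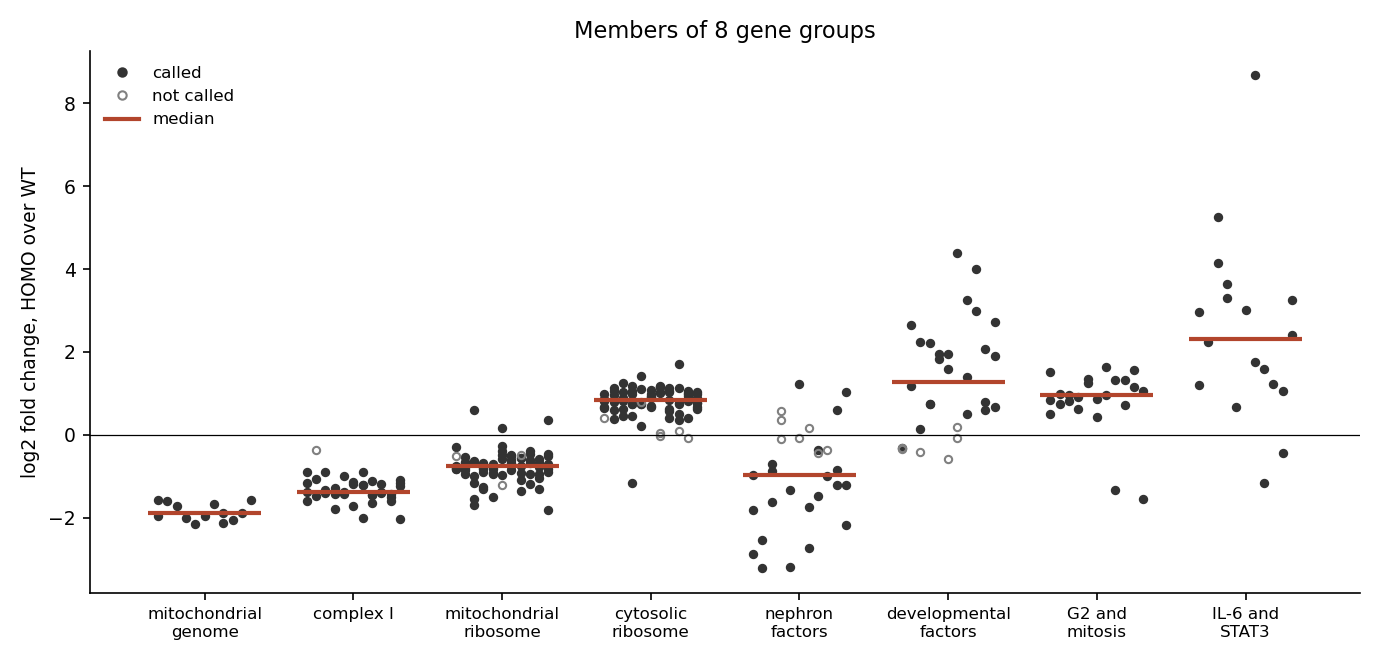
Log2 fold change of HOMO over WT for each member of 8 gene groups (filled when called, open when not), with the median as a line. Most members of the mitochondrial groups lie below 0 and most cytosolic ribosomal proteins above it, with medians of -1.88 for the mitochondrial genome, -1.37 for complex I, -0.755 for the mitochondrial ribosome and 0.834 for the cytosolic ribosome.

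Genes of mitochondria and of the cytosolic ribosome moved apart. All 13 protein genes of the mitochondrial genome fell (median -1.88), as did 37 of 38 complex I subunits (median -1.37). Mt-co1, the catalytic subunit of cytochrome oxidase, was at 14874 to 17407 CPM in HOMO and 62016 to 72855 CPM in WT (-2.0 ± 0.12). Of 74 mitochondrial ribosomal proteins 68 fell and 3 rose (median -0.755), although with library size alone 28 fell and 6 rose. Without WT replicate 2, 1 of them rose. Of 76 cytosolic ribosomal proteins 69 rose and 1 fell (median 0.834), and many of these genes have processed copies that can share reads. The fall, of Rpl10l (-1.17), lost its call when HOMO replicate 1 or 4 or WT replicate 1 or 2 was left out and with library size alone (-0.55, adjusted p = 0.226). The elongation factor Eef1a1 stood at 4274 to 4444 CPM in HOMO and 2307 to 2580 CPM in WT (0.83 ± 0.08).

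Most genes of central carbon metabolism fell. All 20 tested genes of pyruvate dehydrogenase and the citric acid cycle fell (median -1.72), although the fall of the citrate synthase gene Cs (-0.65) was not called with library size alone (-0.03). The mitochondrial pyruvate carrier gene Mpc1 was at 136, 114, 132 and 100.4 CPM in HOMO replicates 1 to 4, against 538, 603, 604 and 583 CPM in WT replicates 1 to 4 (-2.27 ± 0.10). Of 16 genes of glucose and fructose handling 13 fell and 2 rose (median -2.80). The fructose enzymes Khk (-3.81 ± 0.14) and Tkfc (-3.45 ± 0.15) fell, and Khk averaged 28.9 ± 3.8 CPM in HOMO and 404 ± 47.6 CPM in WT. Hexokinase genes were those that rose, Hk2 to 18.5 to 30.2 CPM in HOMO, against 6.13 to 7.97 CPM in WT (1.72 ± 0.21), and Hk1 by less (0.77). The gluconeogenic gene Pck1 averaged 123 ± 151 CPM in HOMO and 2270 ± 763 CPM in WT (-4.21 ± 1.01).

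The kynurenine pathway, which turns tryptophan into NAD, changed in opposite directions along its steps. Of 23 tested genes of tryptophan catabolism and NAD synthesis 16 fell and 6 rose (median -1.72). Tdo2 at the entry rose as given above, whereas the downstream enzymes Kmo (-3.87), Kynu (-4.05 ± 0.14), Haao (-5.03 ± 0.30), Qprt (-2.52) and Acmsd (-4.80 ± 0.13) fell. Acmsd, which diverts the pathway away from NAD, was at 16.6, 14.4, 11.3 and 14.1 CPM in HOMO replicates 1 to 4, against 340, 442, 419 and 373 CPM in WT replicates 1 to 4. Among the 6 that rose were the nicotinamide methyltransferase gene Nnmt (6.26 ± 0.88) and the NAD hydrolase gene Cd38 (2.41 ± 0.23).

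Brush-border and endocytic genes fell in 18 of 20 cases, none rising (median -1.72). Without the library labelled HOMO replicate 3, 1 rose, and with library size alone 15 fell and 4 rose. The microvillus tip genes Cdhr2 (-3.13 ± 0.10) and Ush1c (-2.06 ± 0.09) and the cubilin partner gene Amn (-3.20 ± 0.15) had the smallest p-values. Solute carriers, the largest family examined, fell in 176 and rose in 66 of 300 cases (median -0.74), and with library size alone in 132 and 110 (median -0.13). Slc34a2, a phosphate transporter of lung and gut, was among those that rose, at 456 ± 81.5 CPM in HOMO and 21.8 ± 13.2 CPM in WT (4.38 ± 0.68). The cystine transporter Slc7a11 averaged 3.65 ± 1.62 CPM in HOMO and 0.0986 ± 0.0525 CPM in WT (5.17 ± 0.58). Vacuolar proton pump subunits fell in 20 of 22 cases (median -1.05). Atp6v0a1 was the subunit called higher (0.25), and it lost that call without HOMO replicate 3 or 4 or WT replicate 1, 3 or 4 (lowest value 0.14).

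**Figure D5:**
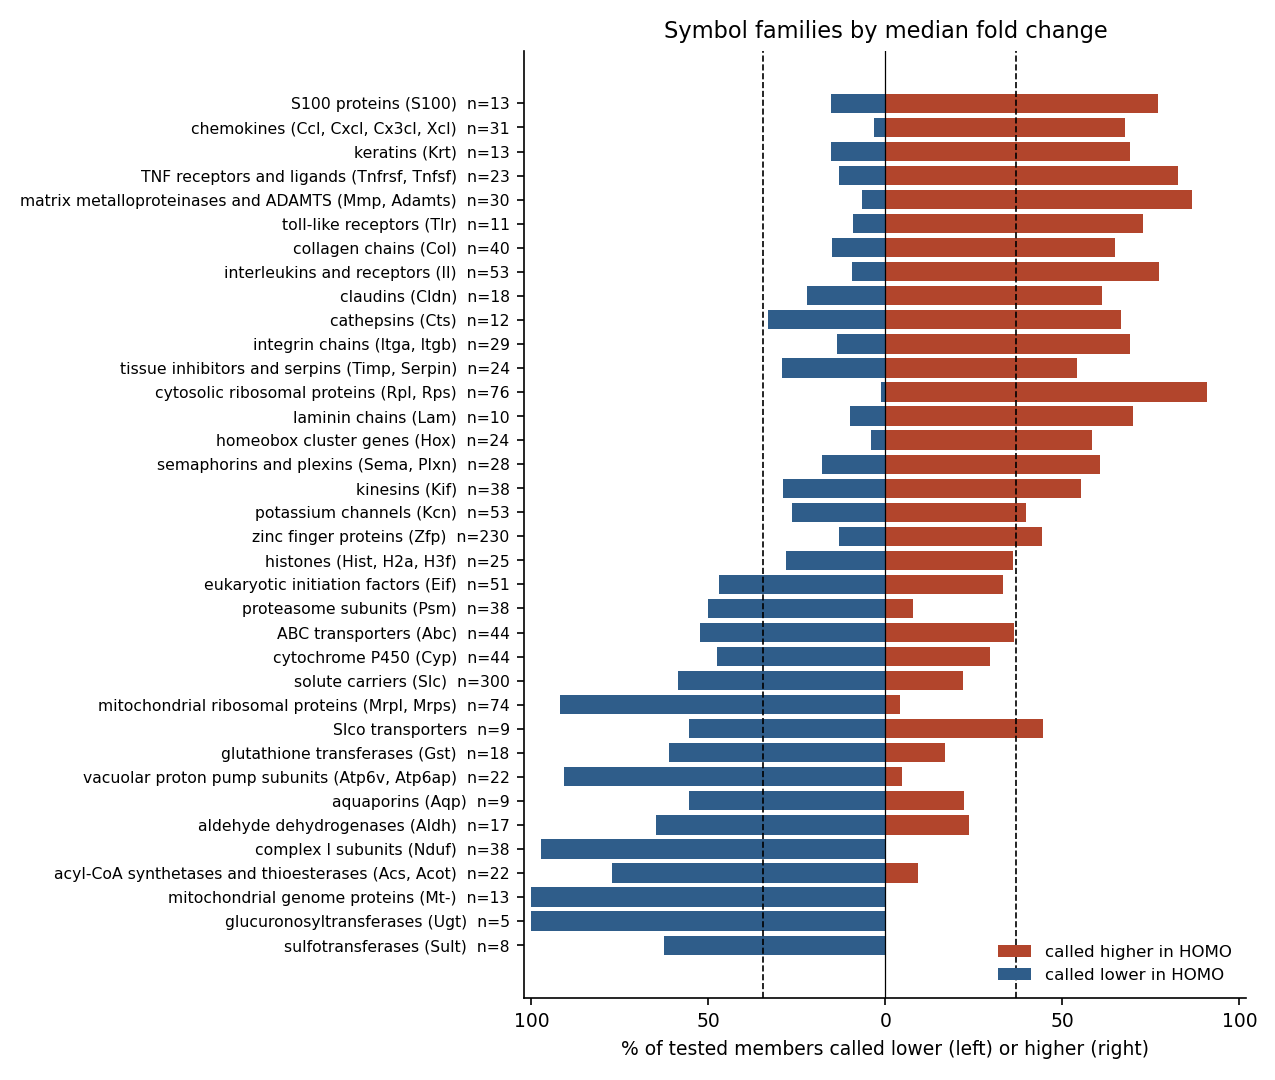
Share of tested members called higher (right) and lower (left) in HOMO for 36 families defined by gene symbol, ordered by median log2 fold change, with dashed lines at the shares over all genes (37.0% higher and 34.7% lower). S100 proteins, chemokines and keratins lie at the top, and sulfotransferases, glucuronosyltransferases and proteins of the mitochondrial genome at the bottom.

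Genes of the IL-6 family mostly rose among ligands, receptors and targets, and the members that fell were receptors. Of 18 tested members 16 rose and 2 fell (median 2.32). Among ligands, Clcf1 was at 13.7 to 20.9 CPM in HOMO and 3.05 to 3.77 CPM in WT (2.41 ± 0.15), and Il11 (4.15 ± 0.56) and Osm (3.64 ± 0.40) rose. Of the receptors, the oncostatin receptor Osmr was at 89.0, 93.2, 89.3 and 126 CPM in HOMO replicates 1 to 4, against 10.9, 8.88, 11.4 and 10.2 CPM in WT replicates 1 to 4 (3.26 ± 0.13), whereas the LIF receptor Lifr fell (-1.17 ± 0.21). Il11ra1 was the other member that fell (-0.43), and with library size alone it was at 0.18 and not called. The feedback inhibitor Socs3 was at 29.1 to 52.6 CPM in HOMO and 0.68 to 1.48 CPM in WT (5.26 ± 0.26), and the transcription factor Stat3 itself rose (1.05 ± 0.09).

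In the TNF and NF-kappa-B list 24 of 28 genes rose and 2 fell (median 1.18). The apoptosis inhibitor Birc3 (4.04 ± 0.16), the receptor Tnfrsf1a (1.53 ± 0.08), the NF-kappa-B regulator Nfkbiz (3.43 ± 0.20) and the feedback inhibitor Tnfaip3 (2.50 ± 0.17) rose. Chuk, which encodes the kinase IKK-alpha, fell to 37.5 to 44.9 CPM in HOMO, against 121 to 131 CPM in WT (-1.65 ± 0.07). Nfkbib was called lower (-0.54) but stood at 0.07, not called, with library size alone. Among interleukins and their receptors 41 of 53 rose and 5 fell, and Il19 and Il24, both of the IL-10 family, averaged 19.2 ± 2.87 and 24.1 ± 6.81 CPM in HOMO and 0.0996 ± 0.0783 and 0.148 ± 0.103 CPM in WT. Chemokines rose in 21 of 31 cases with 1 fall, which became 2 without HOMO replicate 1 or 3. B-cell and follicle markers stood beside these values, with 6 of 7 higher and a summed level of 10.6 to 24.1 CPM in HOMO and 2.27 to 3.94 CPM in WT, and their part in the cytokine values was not tested.

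Developmental signalling pathways differed in how uniformly they moved. In the Wnt list 22 of 30 genes rose and 3 fell (median 2.04). The ligand Wnt4 averaged 12.5 ± 6.10 CPM in HOMO and 1.15 ± 0.186 CPM in WT (3.45 ± 0.39), the extracellular modulator Dkk3 averaged 79.0 ± 14 CPM in HOMO and 4.69 ± 0.86 CPM in WT, and the pathway target Axin2 averaged 21.3 ± 0.268 CPM in HOMO and 2.40 ± 0.469 CPM in WT. The receptor Fzd4 fell (-0.93 ± 0.10), as did Sfrp2 (-1.81 ± 0.22). Of 17 Notch genes 12 rose and none fell (median 0.89), among them the receptor Notch2 (1.43 ± 0.11). Of 33 TGF-beta and BMP genes 19 rose and 5 fell (median 0.50). The latent TGF-beta binding protein Ltbp2 was at 84.1 to 150.2 CPM in HOMO and 3.00 to 4.98 CPM in WT (4.90 ± 0.21), whereas Bmp4 (-2.0 ± 0.13) and Bmp7 (-1.12 ± 0.12) fell. Of 11 EGF receptor genes 4 rose and 3 fell, with Egfr higher (1.2 ± 0.13) and its ligand Btc lower (-1.48 ± 0.15), and their median was 0.01, turning to -0.01 without WT replicate 2.

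Cell cycle genes that were called mostly rose. Of 23 tested genes of G2 and mitosis 21 rose and 2 fell (median 0.97). Cenpf, a kinetochore protein, was at 23.8 to 41.9 CPM in HOMO and 13.1 to 15.5 CPM in WT (1.26 ± 0.17), and the proliferation marker Mki67 averaged 62.4 ± 13.3 CPM in HOMO and 31.8 ± 3.30 CPM in WT (0.97 ± 0.22). The 2 that fell were the spindle motor Kif11 (-1.32 ± 0.14) and the kinase Melk (-1.55 ± 0.44, and -0.95 and not called with library size alone). In the DNA replication list 12 of 24 rose and 2 fell (median 0.61), with 21 rises on library size alone and 5 to 7 when HOMO replicate 1, 2 or 4 or WT replicate 2 or 3 was left out. The cyclin gene Ccnd1 fell (-1.72 ± 0.19).

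Some inhibitors of the cell cycle rose strongly, though the median of their list, which also holds p53 targets, was 0.42. Cdkn2b was at 25.1, 22.7, 18.8 and 35.1 CPM in HOMO replicates 1 to 4, against 0.191, 0.296, 0.227 and 0.157 CPM in WT replicates 1 to 4 (6.87 ± 0.30). Cdkn1a, the p21 gene, rose (2.48 ± 0.20), as did the p53 target Pmaip1 (4.04 ± 0.29), while Ccng1, another p53 target, fell (-0.93 ± 0.10). Of the 26 genes of this list 14 rose and 5 fell, and 3 fell when HOMO replicate 1, 2 or 4 or WT replicate 2 or 4 was left out and 1 with library size alone. Of 18 cell death genes 10 rose and 3 fell, with Ripk3, a kinase of necroptosis, at 17.2 to 26.3 CPM in HOMO and 4.27 to 5.18 CPM in WT (2.23 ± 0.15). Gpx4, which protects against ferroptosis, was called lower (-0.70 ± 0.12), a call that was lost with library size alone (-0.09, adjusted p = 0.525), where 16 of the 18 genes rose and none fell.

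Most of the cytoskeletal, fibrinolysis, matrix protease and collagen genes examined were called higher. Of 29 actin, filament and annexin genes 23 rose and 1 fell (median 1.61). The intermediate filament gene Vim averaged 747 ± 126 CPM in HOMO and 65.6 ± 11 CPM in WT (3.51 ± 0.24), and Anxa1 was at 531 to 721 CPM in HOMO and 70.3 to 103 CPM in WT (2.84 ± 0.13). The fall was that of the podocyte and tubule crosslinker Actn4 (-0.36 ± 0.11), which reversed to 0.25 with library size alone. Of 21 fibrinogen and fibrinolysis genes 15 rose and 1 fell (median 1.35). The fibrinogen chains Fgg (5.28 ± 0.35), Fgb (3.57 ± 0.32) and Fga (1.6 ± 0.42) and the urokinase receptor Plaur (3.37 ± 0.21) rose, and the antiplasmin gene Serpinf2 fell (-3.75 ± 0.25). Without HOMO replicate 3 or WT replicate 3, 2 genes of this list fell. Matrix metalloproteinases and ADAMTS proteases rose in 26 of 30 cases with 2 falls (median 1.92), and collagen chains rose in 26 of 40 cases with 6 falls (median 1.57). Smooth muscle markers were higher in 7 of 8 cases, with a summed level of 306 to 774 CPM in HOMO and 124 to 190 CPM in WT, and their part in these values was not tested.

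Several stress and metabolic programmes had no common direction that held on both scales. Of 25 cholesterol genes 13 fell and 4 rose (median -0.32, and 0.29 with library size alone), with Sc5d (-1.70 ± 0.07) and Fdft1 (-1.45 ± 0.13), enzymes of the synthesis route, lower and the efflux transporter Abcg1 higher (2.45 ± 0.21). Of 18 NRF2 targets and pentose phosphate genes 11 fell and 5 rose (median -0.61, and 0.01 with library size alone). The glutathione synthesis gene Gclc averaged 76.1 ± 28.8 CPM in HOMO and 3205 ± 2206 CPM in WT (-5.40 ± 0.98). Of 27 unfolded protein response genes 9 fell, 5 rose and 13 were not called (median -0.30, and 0.31 with library size alone). Herpud1, of protein degradation at the endoplasmic reticulum, fell (-1.61 ± 0.19) and the asparagine synthetase Asns rose (1.83 ± 0.28). Hypoxia targets were divided, 9 lower and 7 higher of 19 (median -0.08, and 0.53 with library size alone), with Vegfa lower (-1.15 ± 0.13) and Ca9 higher (2.74 ± 0.38).

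Lysosomal genes were likewise divided, 15 lower and 9 higher of 31 (median -0.30, and 0.31 with library size alone). The hydrolase Glb1 (-1.76 ± 0.11) and the channel Mcoln1 (-1.83 ± 0.11) fell, and the leukocyte protein Laptm5 rose (2.57 ± 0.16). Iron genes rose in 8 and fell in 8 of 18 cases, with the ferroxidase Cp at 801, 866, 1492 and 836 CPM in HOMO replicates 1 to 4 and at 62.2 to 95.9 CPM in WT (3.78 ± 0.26). Clock genes fell in 10 and rose in 4 of 21 cases (median -0.49, and 0.12 with library size alone), with the output factor Hlf lower (-3.25 ± 0.20) and the core activator Arntl higher (1.52 ± 0.45). Hours of collection are not given in the labels. Of 21 prostaglandin and leukotriene genes 10 rose and 7 fell, and of 18 genes that bind crystals or modulate mineral 10 fell and 4 rose (median -0.82). In that last list the phosphatase Alpl (-4.50 ± 0.16), the transporter Abcc6 (-2.79 ± 0.13) and the citrate transporter Slc13a2 (-4.31 ± 0.16) fell, and Spp1 and the calcification inhibitor Mgp (3.43 ± 0.19) rose.

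The neighbours of Xdh on chromosome 6 changed in both directions. All 5 tested genes on either side of it by listed start were called, 3 higher and 7 lower. On the side of lower coordinates these were Lbh (2.19 ± 0.18), Lclat1 (-1.30 ± 0.14), Capn13 (1.63 ± 0.58), Galnt14 (-3.99 ± 0.13) and Ehd3 (-1.0 ± 0.18). On the other side they were the steroid reductase gene Srd5a2 (-3.19 ± 0.47), the AP-1 member Fosl2 (2.49 ± 0.21), Babam2 (-0.83 ± 0.07), Rbks (-0.91 ± 0.10) and Mrpl33 (-0.47 ± 0.09). Capn13 lost its call without HOMO replicate 1 (0.75) and without WT replicate 1, 2 or 3 (1.43 to 1.54). With library size alone Ehd3 was at -0.40 and not called, and Mrpl33 was at 0.14. A share of 10 in 10 called genes stands against 71.7% of all genes.

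Of the genes named by rule, 172 were listed in the authors' deposited table. Of these, 163 had a false discovery rate under 0.05 in the authors' deposited table and were also called here, and all 163 had the same direction in the authors' deposited table as here. Both comparisons use the same libraries and the 163 were called in both, so the shared direction is not independent evidence.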

How the data were processed

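Poly(A) RNA of kidney cortex was measured in 12 libraries, of which 4 HOMO and 4 WT are compared here. Per the file headers, the authors deposited raw read counts per gene and RPKM values in 1 table of 32623 genes, and a comparison table with log2 fold changes and p-values. RPKM by the authors was used only to rank abundance. The submitters' processing notes name Rnor_6.0 and edgeR 3.8.6 without their roles. The aligner, the counter and whether strand was used: not given in the sources used here.

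Of 22687 genes with a count, filterByExpr at a minimum count of 10 and a minimum total of 15 left 15856. TMM factors were 1.29 to 1.35 in HOMO and 0.83 to 0.91 in WT. Quasi-likelihood tests (edgeR 4.0.16, R 4.3.3) came from a single fit over the 3 genotypes, with the 4 heterozygote libraries sharing the estimate of spread, with Benjamini-Hochberg adjustment at 0.05. "Rose", "fell" and "called" refer to that test. It was run on simulated data in which few genes changed, with rises and falls equal in number. That setting lacks the wide shift of these data, so it could not check the scale or the directions that depend on it. Single values were compared by exact permutation. Alternatives were RLE factors, library size alone, other filters, DESeq2 1.42.0, limma voom 3.58.1, only the 8 libraries, the replicate number as a block and leaving out each library. No 2 libraries agreed within counting noise.

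The 38 lists (768 members, 709 tested), 36 symbol families and the rules were chosen with earlier results of these data known. The rule named Xdh and the 12 largest rises and falls. The rises and falls came from called genes with a named symbol, an average log2 CPM of 1 or more and separate groups. The rule also named 3 members per list by p, 1 against its median and the 10 most abundant genes per group. Added to these were 5 neighbours of Xdh on each side and genes in which the library labelled HOMO replicate 3 stood apart. Some genes that the rule picked are not reported here. Other members named in the text were chosen after their values were seen. Bounds and intervals cover counting error only. Promoter sequences are from RefSeq (GRCr8).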

Additional observations from a re-analysis of the deposited data

Results flagged for a closer look

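A library was marked where it stood apart from the other 3 of its group by Dixon's 95% critical value. Of 376 groups of 4 libraries tested in this way 50 were marked, where chance marks about 1 in 20, and the genes in which the library labelled HOMO replicate 3 lay farthest from its group were picked for that distance. HOMO replicate 1 stood apart in Plin4 at 42.57 CPM, Ca3 at 1387 CPM, Klk1c2 at 0.02064 CPM, Hspb1 at 51.63 CPM, Cfd at 292.8 CPM, Plin1 at 97.56 CPM and Adipoq at 319.0 CPM. It also stood apart in Upk2 at 32.68 CPM, Upk1a at 46.65 CPM, Mc2r at 4.5 CPM, Eef1a1 at 4274 CPM, Capn13 at 3.509 CPM, Upk3a at 30.72 CPM and Scd at 253.3 CPM. HOMO replicate 2 stood apart in Nr1d1 at 31.61 CPM. The library labelled HOMO replicate 3 stood apart in Xdh at 229.7 CPM, Dkk3 at 99.76 CPM, Btc at 5.827 CPM, Abcg1 at 78.87 CPM, Cp at 1492 CPM, Acta2 at 39.47 CPM and Gpx3 at 3842 CPM. It also stood apart in Lbh at 30.66 CPM, Spp2 at 20.76 CPM, Brms1 at 7.429 CPM, Mpped1 at 0.7208 CPM, Dnase1 at 227.7 CPM, Ly6al at 5.787 CPM and Fmo2 at 126.4 CPM. HOMO replicate 4 stood apart in Aoc1 at 22.33 CPM, Mcm7 at 43.13 CPM, Osmr at 126.2 CPM, Tbxas1 at 34.29 CPM and Actn4 at 544.4 CPM. WT replicate 1 stood apart in Tdo2 at 0.03175 CPM, Egfr at 12.13 CPM, Cp at 95.86 CPM and Cyp17a1 at 0.254 CPM. WT replicate 2 stood apart in Kyat1 at 545.6 CPM, Mt-atp6 at 28620 CPM, Mt-nd2 at 11389 CPM, Spp2 at 472.0 CPM, Ucp1 at 0.4654 CPM and Scd at 4.612 CPM. WT replicate 3 stood apart in Cxcl6 at 0.0378 CPM, Spp1 at 796.8 CPM and Fosl2 at 3.176 CPM. WT replicate 4 stood apart in Dio3 at 0.06292 CPM, Mmp7 at 0.03146 CPM and Alas2 at 15.04 CPM. Where the other libraries of a group held no count, any count gave a mark. This was so for Klk1c2, Tdo2, Cxcl6 and Mmp7, each with 1 count, for Dio3 with 2 counts and for Ucp1 with 11 counts. The marks at 1 or 2 counts say nothing about the library. Ucp1 is among the adipocyte markers, whose sum in WT replicate 2 was the lowest in WT, at 9.05 CPM. The part of fat in WT replicate 2 was not tested. The adipocyte markers Cfd, Plin1 and Adipoq and the urothelium markers Upk1a, Upk2 and Upk3a are among the genes that stood apart in HOMO replicate 1. The part of fat, urothelium or adrenal tissue in other values of that library was not tested.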

How the results depend on the processing

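The numbers of genes called were within 1.5 times of those reported in every alternative run except for direction on library size alone, which called 10292 genes higher and 2564 lower (80.1% of calls higher, against 51.6%). Xdh was then at -0.85 (adjusted p = 0.0901), Actn4 reversed to 0.25, Tead1 to 0.31 and Mrpl33 to 0.14. That scale leaves out the composition factors and so moves every log2 fold change up. Leaving out each library in turn, 10926 to 11339 genes were called, 5617 to 5853 higher and 5309 to 5517 lower, and Xdh was between -2.25 and -1.28. The medians of 10 of the 74 lists and families changed sign with library size alone and 4 with some library left out. Of 172 named called genes, 151 kept call and direction in every setting run, and 5 lost the call with some library left out (Plin4, Tead1, Cyp21a1, Capn13 and Dnase1). Dnase1 was -2.83 without the library labelled HOMO replicate 3 and lost its call without any other library (-1.63 to -1.30), and with library size alone Dnase1 was -0.98 (adjusted p = 0.153) and Cyp21a1 -1.67 (adjusted p = 0.0842), both not called. Among promoter windows, GTTAAT was in 10.5% of the 200 largest rises and 16% of the 200 largest falls, CAAAGTC in 11% of the 200 largest falls and TTCCCGC in 2.0% of the 200 largest rises, and GTTAAT in 4.2% of the 500 largest rises whose log2 CPM averaged 1 or more, an alternative chosen after seeing the data. With the replicate number as a block 11265 genes were called, 5819 higher and 5446 lower, and Xdh was at -1.78. The numbers do not pair the samples, since same-numbered libraries correlated at -0.133 to 0.0223 and 0 of 4 HOMO libraries correlated best with the WT library of their number. Counting depth limits genes with a few counts per group.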
